A study of Mus musculus with 44 samples.

Results

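The 10 transcripts described here carry glucose production and insulin signalling: the gluconeogenic enzymes Pcx, Pck1, Fbp1 and G6pc, the insulin receptor Insr, its docking proteins Irs1 and Irs2, the kinase Akt2, the transcription factor Foxo1 and the secreted binding protein Igfbp1. They were chosen by symbol, matched to the Ensembl identifiers of the count and RPKM tables, and are 10 of the 38202 genes listed. Poly(A) RNA was sequenced from the liver and the skeletal muscle of the same 22 male mice on the C57BL/6N background, 11 Slc16a13 wild-type (WT) and 11 Slc16a13 knockout (KO) littermates. The KO allele is a constitutive CRISPR/Cas9 deletion of the promoter and the first exons of Slc16a13, a member of the monocarboxylate transporter family, so both tissues of a KO mouse carry it. All mice, WT and KO alike, ate a high-fat diet for 15 weeks up to the age of 20 weeks, and the study's methods state an overnight fast before killing unless noted otherwise. The comparison asks whether transcripts of the glucose and insulin pathway differed between KO and WT mice in either tissue, and how much they varied from mouse to mouse.

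In the fasted liver, lactate, pyruvate and amino acids are turned into glucose. Pyruvate carboxylase (Pcx) makes oxaloacetate, phosphoenolpyruvate carboxykinase (Pck1) turns it into phosphoenolpyruvate, fructose-1,6-bisphosphatase (Fbp1) removes a phosphate further up, and the catalytic subunit of glucose-6-phosphatase (G6pc) releases free glucose. Insulin binds its receptor (Insr), whose docking proteins Irs1 and Irs2 lead to the kinase Akt2, and Akt2 phosphorylates Foxo1 and keeps it out of the nucleus. Pck1, G6pc, Igfbp1 and Irs2 are textbook targets of nuclear Foxo1 and are therefore high in fasting and low after insulin, while cyclic AMP released by glucagon signalling also raises Pck1 and G6pc. Muscle lacks this hepatic form of glucose-6-phosphatase and does not export glucose, but uses the same receptor, docking proteins and kinase to take glucose up.

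The promoters of Igfbp1, G6pc and Pck1 are shown because insulin and glucagon are known to act on the stretch before the start of these genes. Each runs 5′ to 3′ on the strand of the gene, from 250 bases before to 50 bases after the transcript start, as RefSeq gives it for GRCm38.p6. The Igfbp1 promoter lies at chr11:7197537-7197836, the G6pc promoter at chr11:101367466-101367765 and the Pck1 promoter at chr2:173152823-173153122, all on the plus strand. Capitals mark the core of the insulin response element, CAAAACA on either strand, and the cyclic AMP response half-site, CGTCA on either strand. Neither overlaps the other in these 3 windows.
Igfbp1: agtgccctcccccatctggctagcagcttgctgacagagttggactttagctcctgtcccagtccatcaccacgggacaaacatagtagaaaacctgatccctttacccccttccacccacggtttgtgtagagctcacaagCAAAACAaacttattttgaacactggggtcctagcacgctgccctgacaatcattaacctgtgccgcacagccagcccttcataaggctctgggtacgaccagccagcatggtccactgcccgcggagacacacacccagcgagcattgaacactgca
G6pc: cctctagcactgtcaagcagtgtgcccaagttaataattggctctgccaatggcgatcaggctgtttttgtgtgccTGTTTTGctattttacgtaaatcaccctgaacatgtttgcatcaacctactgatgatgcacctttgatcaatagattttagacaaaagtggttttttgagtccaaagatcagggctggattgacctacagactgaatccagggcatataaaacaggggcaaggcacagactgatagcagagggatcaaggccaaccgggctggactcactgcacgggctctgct
Pck1: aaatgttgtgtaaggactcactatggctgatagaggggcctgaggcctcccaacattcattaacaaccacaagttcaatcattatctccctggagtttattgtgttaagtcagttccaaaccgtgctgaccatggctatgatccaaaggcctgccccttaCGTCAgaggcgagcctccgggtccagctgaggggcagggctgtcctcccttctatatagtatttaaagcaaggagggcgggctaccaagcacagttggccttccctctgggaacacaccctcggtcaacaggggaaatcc
The Igfbp1 window holds CAAAACA beginning at -108 from the transcript start, and the G6pc window holds it on the opposite strand, as TGTTTTG, at -174. The Pck1 window holds CGTCA at -90. CAAAACA was found on either strand in 6.28% of the 32851 promoters of the table and CGTCA in 20.8%. GTAAACA, a consensus core for FOXO factors, was found in 3.65% of them. No promoter held GTAAACA among the 9 genes, of these 10, for which the table held an entry (13 promoters in all). Its absence does not mean that these promoters lack FOXO sites. CAAAACA also occurred in those of Irs1 and Irs2, and CGTCA in those of Irs1 and Akt2. These matches describe letters only.

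The deletion was checked in every library first. Slc16a13 had 99 to 302 reads in the WT livers and 0 to 8 reads in the KO livers, with no overlap. In muscle, where Slc16a13 was close to absent, the libraries labelled KO held more reads than those labelled WT, 11 to 40 (median 18) against 4 to 22 (median 12), on counts that do not separate the deleted from the remaining exons. The muscle groups are therefore given below as labelled. Libraries held 20150712 to 35218243 counts. In 4 KO livers, those of mice 532, 602, 583 and 611, reads fell with gene length: the slope of log2 CPM (counts scaled to library size, with the trimmed mean of M-values as factor within each tissue) on log2 length was -0.54, -0.42, -0.25 and -0.08, against 0.04 to 0.10 in the WT livers and 0.04 to 0.11 in the other 7 KO livers. The liver differences of the 10 transcripts are given with and without these 4 libraries. The 11 hepatocyte markers summed to at least 98243 CPM in every WT liver and the 12 muscle fibre markers to at least 194331 CPM in every WT muscle.

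Liver and muscle of WT mice used the pathway at very different levels. Per transcript length, as reads scaled to transcript length and library size (RPKM), the gluconeogenic enzymes led in liver: Pck1 at a median of 936 (444 to 1463, n = 11), Fbp1 at 690 (564 to 882), Pcx at 252 (242 to 302) and G6pc at 130 (40.2 to 365). The insulin signalling transcripts were lower in liver, with Akt2 at 31.8 RPKM (30.7 to 35.99), Igfbp1 at 20.3 (6.73 to 78.6), Insr at 17.9 (15.6 to 18.8), Foxo1 at 8.89 (6.83 to 15.8), Irs1 at 2.23 (1.87 to 3.23) and Irs2 at 1.88 (0.437 to 4.20). In this order the ranges of neighbours did not overlap between Fbp1 and Pcx, between G6pc and Akt2, and between Foxo1 and Irs1, and overlapped in the other 6 steps. In muscle the kinase came first, with Akt2 at 99.9 RPKM (87.0 to 110), followed by Pcx at 25.6 (21.7 to 28.6), Insr at 14.01 (12.1 to 15.8), Foxo1 at 6.15 (4.41 to 11.3), Pck1 at 5.97 (1.80 to 15.7), Irs1 at 4.82 (3.84 to 7.63) and Irs2 at 4.79 (2.57 to 10.3). The first 3 muscle steps did not overlap, and Foxo1, Pck1, Irs1 and Irs2 all overlapped each other. Fbp1 had a median of 0.027 RPKM in muscle, and G6pc and Igfbp1 medians of 0.

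Of the 10 transcripts, 7 had reads in every WT library of both tissues, and each of them differed between WT liver and WT muscle with edgeR's quasi-likelihood test, 4 higher and 3 lower in liver, where 91.0% of the 13907 genes tested passed (45.5% higher and 45.5% lower) and 91.2% had an unadjusted p under 0.05. Pck1 was 6.92 ± 0.34 (SE) log2 units higher in liver (adjusted p = 2.7e-16) and Pcx 3.38 ± 0.06 higher. The other 3, Fbp1, G6pc and Igfbp1, could be tested only through their liver reads and are described by level. Fbp1 and G6pc had 15 and 4 reads over all 11 WT muscles, with 4 and 8 of these at 0, against 274186 and 113427 reads in the WT livers. Igfbp1 had no read in any muscle of either label, so its lowest WT liver was at least 72.7-fold above the level of 3 counts in the shallowest muscle library and the median WT liver at least 226-fold. Insr was 0.34 ± 0.05 and Foxo1 0.61 ± 0.18 log2 units higher in liver, whereas Irs1 (-1.07 ± 0.12), Irs2 (-1.43 ± 0.31) and Akt2 (-1.59 ± 0.04) were lower in liver. Of these 7, the RPKM values of the tissues did not overlap for Pck1, Pcx, Irs1 and Akt2, as for 67.4% of all genes tested, and overlapped for Insr, Irs2 and Foxo1.

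**Figure D1:**
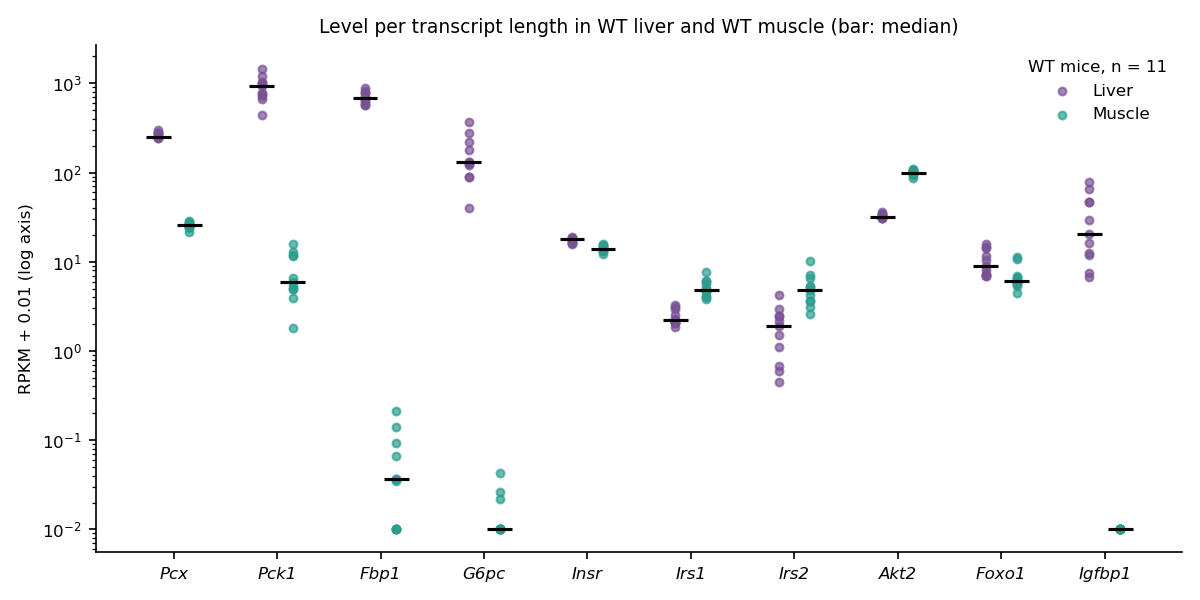
Level per transcript length of the 10 transcripts in WT liver and WT muscle; each point is 1 library (n = 11 per tissue), bars are medians, and the log axis shows RPKM with 0.01 added so that zeros can be drawn. Pck1, Fbp1, Pcx and G6pc lie highest in liver, Akt2 lies highest in muscle, and Igfbp1 is at 0 in every WT muscle.

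In lists of the wider pathway, the same model called 15 of 33 tested genes of gluconeogenesis and its regulators higher and 12 lower in liver. The counts were 9 and 21 of 32 in insulin signalling and 11 and 8 of 20 brakes on insulin signalling. They were 5 and 4 of 10 in the insulin-like growth factor binding family, and 6 and 1 of 7 transcripts that insulin raises in liver. Over all genes tested the shares were 45.5% higher and 45.5% lower. Among those counted, Hnf4a, Tat, Gcgr, Foxa2 and Igfbp2 were at or near 0 in muscle, and Foxo6 in liver. The calls of such genes were fixed by their reads in the other tissue and are no test. Hnf4a, a liver nuclear receptor, had a median of 169 RPKM in WT liver, Tat, the tyrosine aminotransferase, 697, Gcgr, the glucagon receptor, 140.2, and Foxa2 10.5, and all 4 had a median of 0 in muscle. Slc2a4, the insulin-responsive glucose transporter, was at 186 RPKM in muscle and 0.101 in liver, and the glycogen synthases were split, with Gys1 at 138 in muscle and 1.05 in liver and Gys2 at 0.149 and 75.9. Among the brakes Ptprf, a receptor phosphatase, and Ceacam1, which takes part in insulin clearance, were liver transcripts at 29.9 and 38.8 RPKM, while Prkcq and Grb10 were at 29.8 and 8.96 RPKM in muscle and 0.498 and 0.731 in liver. Igfbp4, Igf1, Igfbp2 and Igfals were all higher in liver, at 917, 292, 186 and 43.6 RPKM.

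The paralogs differed in level as well. Fbp2, the muscle fructose-1,6-bisphosphatase, had a median of 69.1 RPKM in WT muscle and 0.257 in WT liver, the opposite of Fbp1. G6pc3, the broadly expressed glucose-6-phosphatase, was at 34.5 RPKM in muscle and 4.94 in liver, and G6pc2, the islet form, had no read in any muscle and at most 0.374 CPM in liver. Pck2, the mitochondrial phosphoenolpyruvate carboxykinase, was near 1 RPKM in both, at 1.05 in muscle and 0.689 in liver. Akt1 was level, at 22.8 RPKM in muscle and 22.7 in liver, whereas Akt2 was higher in muscle. The insulin-like growth factor receptor Igf1r was at 1.998 RPKM in muscle and 0.163 in liver, Foxo3 at 6.80 and 9.21, and Foxo4 at 71.5 and 10.2. Irs4 had no read in any WT library.

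Among the WT livers, which shared diet, age and the planned fast, Igfbp1, Irs2 and G6pc spread most of the 10. Igfbp1 ranged from 10.02 to 121 CPM with a median of 31.2, so the highest WT liver, of mouse 623, held 12.1 times the level of the lowest, of mouse 516. Irs2 ranged from 1.66 to 17.02 CPM, a factor of 10.3, and was also highest in mouse 623. G6pc ranged from 94.7 to 833 CPM, a factor of 8.79, with mouse 624 highest and mouse 516 lowest. The SD of log2 CPM was 1.24 for Igfbp1, 1.06 for Irs2 and 0.85 for G6pc, against a median of 0.175 over the 13005 genes tested, so that 99.5%, 99.0% and 98.3% of genes varied less. Pck1 (SD 0.49, 1150.3 to 4025 CPM) and Foxo1 (SD 0.49, 34.98 to 91.6 CPM) varied more than 91.3% and 91.5% of genes.

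The remaining transcripts varied less between WT livers. Akt2 ran from 68.0 to 77.2 CPM, with an SD of 0.06 log2 units that only 2.48% of genes undercut. Pcx ran from 982 to 1182 CPM (SD 0.08), Insr from 141 to 177 (SD 0.12), Fbp1 from 770 to 1110 (SD 0.18) and Irs1 from 16.9 to 27.9 (SD 0.26). Insr, Fbp1 and Irs1 varied more than 29.5%, 51.9% and 70.2% of genes. Among the genes nearest to each in level these shares were 53.3%, 69.3% and 90.6%. Enzymes of gluconeogenesis were thus found at both ends, with Pck1 and G6pc above 91.3% of genes and Pcx above 10.7%, and so were the insulin signalling transcripts, with Irs2 above 99.0% and Akt2 above 2.48%.

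**Figure D2:**
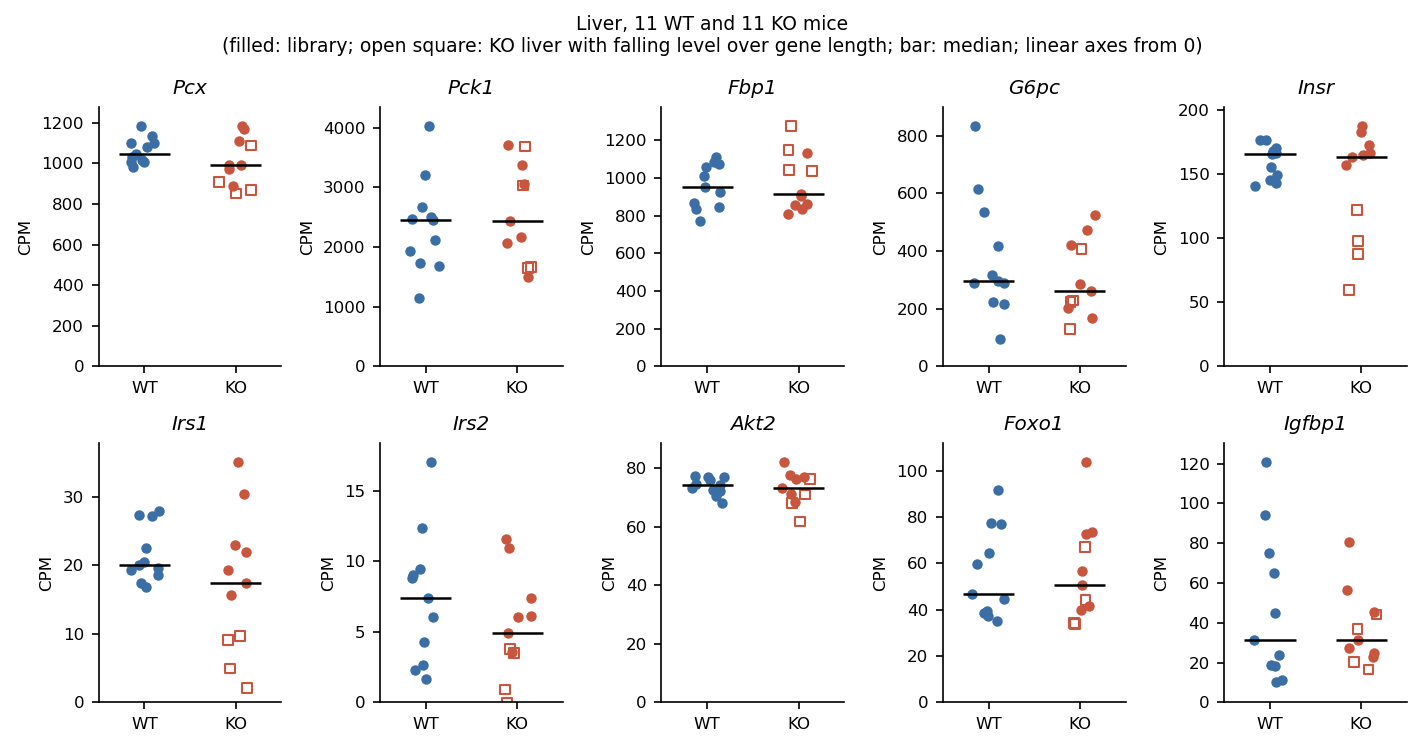
CPM of the 10 transcripts in each of the 11 WT and 11 KO livers; each panel has its own linear axis from 0, bars are medians, and open squares are the 4 KO livers whose reads fell with gene length. WT and KO points overlap in every panel, and for Insr and Irs1 all 4 open squares lie below every WT liver.

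None of the 10 transcripts differed between KO and WT livers at an adjusted p under 0.05, where 3 of 13005 genes (0.0231%) passed, and none had an unadjusted p under 0.05, against 12.9% of genes. The groups overlapped for every one of them, and 0.00769% of genes, Slc16a13 alone, had groups that did not overlap; that gene was also the only 1 called lower (0.00769%). Among the enzymes, Pck1 ran from 1495 to 3707 CPM in KO livers (median 2444) and from 1150.3 to 4025 in WT livers (median 2461), a log2 difference of 0.13 with a 95% interval of -0.27 to 0.52 (adjusted p = 0.71). G6pc ran from 131 to 525 CPM in KO livers (median 262) and had a median of 297 in WT livers, a log2 difference of -0.31 (-0.91 to 0.29, adjusted p = 0.54). All 11 KO livers lay within the WT range for both Pck1 and G6pc. Pcx, with medians of 989 in KO and 1046 CPM in WT livers, differed by -0.08 (-0.21 to 0.04), and Fbp1, with medians of 917 and 952 CPM, by 0.04 (-0.14 to 0.22).

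Of the insulin signalling transcripts, Akt2 and Foxo1 had the differences closest to 0. Akt2 was at a median of 73.3 CPM in KO and 74.2 in WT livers, a log2 difference of -0.02 whose interval, -0.11 to 0.08, was the narrowest of the 10. Foxo1 was at 50.5 and 46.7 CPM, a difference of 0.01 (-0.41 to 0.44). Igfbp1 ran from 16.5 to 80.8 CPM in KO livers, all within the WT range, with medians of 31.4 in KO and 31.2 in WT livers and a difference of means of -0.33 (-1.14 to 0.47). The receptor and its docking proteins had medians of 163 against 166 CPM (Insr), 17.3 against 20.1 (Irs1) and 4.92 against 7.40 (Irs2), with log2 differences of -0.17 (-0.47 to 0.13), -0.33 (-0.95 to 0.29) and -0.47 (-1.44 to 0.51). The intervals of Igfbp1 and Irs2 include a fall by 1 log2 unit, those of G6pc and Irs1 end at -0.91 and -0.95, and those of Pcx, Fbp1 and Akt2 stayed within 0.22 of 0.

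The lowest values of the receptor Insr and of Irs1 lay in the 4 livers with a negative length slope. Irs1 was at 2.12, 4.95, 9.12 and 9.66 CPM in mice 532, 602, 583 and 611, and Insr at 59.7, 87.7, 98.1 and 122 CPM, all below the lowest WT liver. Irs2 had no read in mouse 532 and was at 0.915, 3.79 and 3.49 CPM in the others. In the remaining 7 KO livers Irs1 ran from 15.6 to 35.001, Insr from 157 to 188 and Irs2 from 3.54 to 11.6 CPM. Of these livers, mouse 588 lay below the WT range for Irs1 and mice 561 and 598 above it. For Insr, mice 561 and 588 lay above the WT range. Over all genes tested, 11.3% had all 4 of these livers below every WT liver and 7.56% had all 4 above, and of the 10 transcripts 2, Insr and Irs1, were below in all 4 and none was above. Gene models implied by the RPKM values were 9356 bases for Insr, 9144 for Irs1 and 4024 for Irs2. Of the 4 livers, Foxo1 (5552 bases) was below every WT liver in mice 532 and 611. Pcx (4134) was below in 532, 602 and 611, and Akt2 (2313) in 532. Pck1 (2638), G6pc (2414) and Igfbp1 (1525) lay within the WT range in all 4. Fbp1 (1383) had its 2 highest KO livers in mice 532 and 583, at 1276 and 1151 CPM. The same 4 livers held summed erythroid markers of 390 to 574 CPM, against 222 to 332 in WT livers and 202 to 291 in the other 7 KO livers. Endothelial markers summed to 132 to 183, against 183 to 222 and 190 to 232. Macrophage markers summed to 452 to 1001, against 326 to 424 and 291 to 467. For macrophage markers the 4 and the other 7 KO livers overlapped. Of those 7, mice 568, 570, 587 and 598 also lay above every WT liver, at 467, 444, 433 and 432 CPM. The part of length and of these markers in the low values was not tested.

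Without the 4 livers, Insr was 0.10 (-0.02 to 0.21) and Irs1 0.11 (-0.21 to 0.42) log2 units higher in KO than in WT livers, and Irs2 was level at -0.03 (-0.82 to 0.76). None passed, and the direction for Insr and Irs1 thus depended on these libraries, as did the small differences of Fbp1, now -0.09, and Akt2, now 0.03. Pcx moved from -0.08 to -0.03, Pck1 from 0.13 to 0.15, G6pc from -0.31 to -0.17, Igfbp1 from -0.33 to -0.17 and Foxo1 from 0.01 to 0.17.

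**Figure D3:**
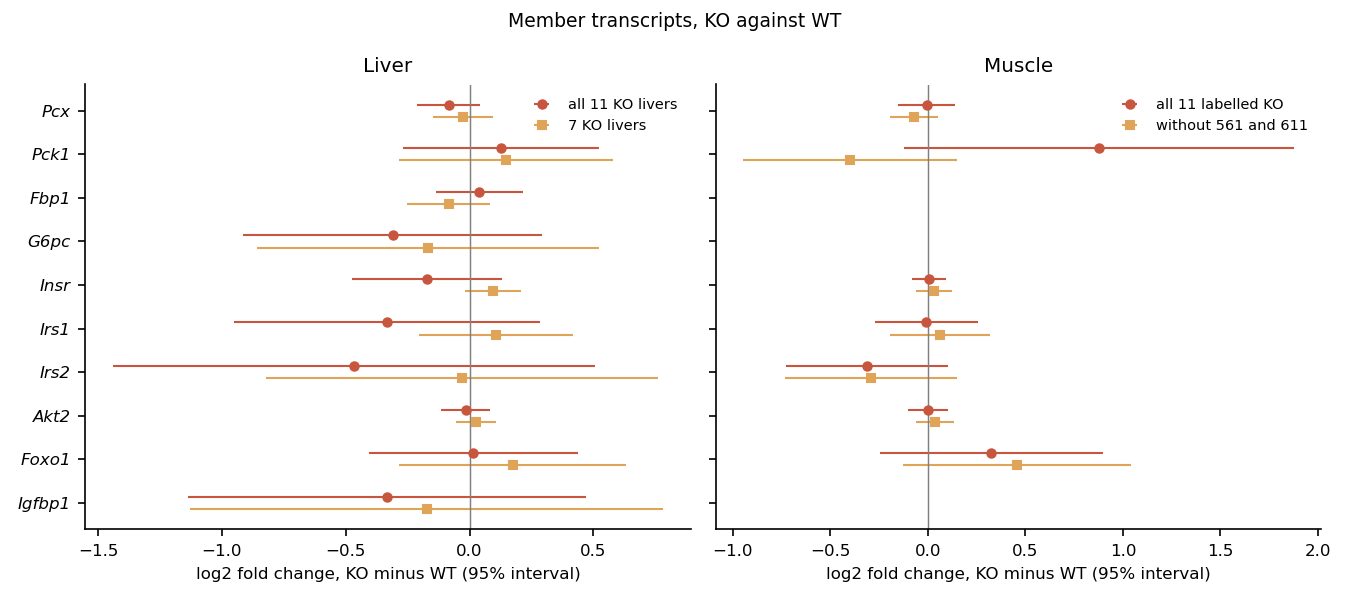
Log2 fold change of each transcript, KO minus WT, with its 95% interval from edgeR, in liver (left) and muscle (right). Circles use all libraries. Squares leave out the 4 KO livers of negative length slope or the muscles labelled KO 561 and 611. The latter were chosen after the values had been seen. All intervals cross 0; Insr, Irs1, Fbp1 and Akt2 change side in liver, and Pck1, Irs1 and Akt2 in muscle; Fbp1, G6pc and Igfbp1 were too low to test in muscle.

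The wider pathway lists gave no called gene in liver either. None of 32 tested genes of gluconeogenesis and its regulators, 29 of insulin signalling, 20 brakes on insulin signalling and 10 of the insulin-like growth factor binding family passed, and their median log2 differences were 0.02, -0.09, -0.12 and 0.13, beside -0.01 over all genes. At an unadjusted p under 0.05, 2 were higher and 0 lower in KO livers in the first list, 2 and 4 in the second, 0 and 1 in the third and 0 and 0 in the last, beside 9.78% higher and 3.1% lower over all genes. That split of all genes turned round with limma-voom, to 5.21% higher and 7.5% lower. The smallest unadjusted p-values were those of Mdh1 (0.18 ± 0.07 SE, p = 0.027), cytosolic malate dehydrogenase, and Mpc2 (0.31 ± 0.14, p = 0.038), a subunit of the mitochondrial pyruvate carrier, in the first list, and Rps6kb2 (0.18 ± 0.07, p = 0.017) and Pik3cb (-0.25 ± 0.10, p = 0.019) in the second, each with an adjusted p of 0.38. Without the 4 livers Mpc2 was at -0.03, Mdh1 at 0.02, Rps6kb2 at 0.06 and Pik3cb at -0.09. Among the brakes, Trib1 and Trib3, pseudokinases of the tribbles family, stood at -0.26 ± 0.12 and 0.31 ± 0.15, and among the binding proteins Igfbp2 stood at 0.60 ± 0.34 and Igfbp4 at 0.17 ± 0.09. Without the 4 livers these were -0.21 and 0.19, and 0.30 and 0.02, and the medians of the lists were 0.0031, 0.02, 0.02 and 0.04, with 1 gene in all, in the first list and lower, at an unadjusted p under 0.05.

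The 6 tested transcripts that insulin raises in liver had the lowest median, -0.36, with 5 of 6 below 0 and 4 lower at an unadjusted p under 0.05, beside 3.1% of all genes, none of them called. Without the 4 livers the median was -0.27, with 3 of 6 lower at an unadjusted p under 0.05 beside 1.6% of all genes. Fasn, the fatty acid synthase, ran from 52.8 to 102 CPM (median 84.1) in KO and from 85.8 to 152 CPM (median 111) in WT livers, and the log2 difference was -0.53 ± 0.12 (p = 0.00021, adjusted p = 0.38). Elovl6, which lengthens its product, ran from 16.2 to 38.6 (median 27.5) and from 25.9 to 43.5 CPM (median 36.6) and differed by -0.47 ± 0.12 (p = 0.00081, adjusted p = 0.38). Without the 4 livers these differences were -0.35 ± 0.10 (p = 0.0029, adjusted p = 0.999) and -0.32 ± 0.11 (p = 0.0075, adjusted p = 0.999). These lipogenic transcripts thus did not pass over all genes in either setting.

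The balance between isoforms was compared per mouse as the log2 ratio of RPKM with 0.1 added. In liver the Irs1 to Irs2 ratio was 0.61 ± 0.96 (SD, n = 11) in WT and 0.60 ± 0.69 in KO mice (two-sided permutation test, p = 0.99), and it ran from -0.49 to 2.14 in WT and from -0.50 to 1.68 in KO livers. The Akt2 to Akt1 ratio was 0.53 ± 0.11 in WT and 0.39 ± 0.25 in KO livers (permutation p = 0.12, adjusted p = 0.67), and 0.53 ± 0.13 in the 7 KO livers without the negative slope. The Pck1 to Pck2 ratio was the widest, at 10.1 ± 0.65 in WT and 10.03 ± 0.68 in KO livers, and the Foxo1 to Foxo3 ratio was 0.24 ± 0.34 and 0.26 ± 0.26. In the 7 KO livers the Irs1 to Irs2, Pck1 to Pck2 and Foxo1 to Foxo3 ratios were 0.52 ± 0.72, 10.1 ± 0.57 and 0.30 ± 0.30. None of the 8 ratios, 4 in each tissue, passed, the smallest adjusted p being 0.67.

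Whether the Foxo1 targets rose and fell together was asked across livers, where the points of a pair share a library and its depth. Of the 6 pairs among Pck1, G6pc, Igfbp1 and Irs2 in 11 WT livers and in the 7 KO livers without the negative slope, none passed after adjustment over the 12 relations. The closest were G6pc with Igfbp1 in WT livers (Pearson's r = 0.64, permutation p = 0.031, adjusted p = 0.29; Spearman's rho = 0.55, permutation p = 0.087, adjusted p = 0.35) and Igfbp1 with Irs2 (r = 0.61, permutation p = 0.049, adjusted p = 0.29; rho = 0.74, permutation p = 0.013, adjusted p = 0.15). Without the 2 livers farthest from the median, r was 0.34 for the former and 0.67 for the latter. In the 7 KO livers r was 0.43 and -0.40, and neither passed. Pck1 and G6pc had r = 0.28 in WT and -0.23 in KO livers.

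Foxo1 itself was then set against the same 4 targets, a comparison chosen after the values had been seen. Adjustment over the 8 relations does not cover that choice, so these p-values are given as description. The comparison was not repeated on RPKM or with all 11 KO livers. In WT livers Foxo1 and Pck1 had r = 0.80 (permutation p = 0.0022, adjusted p = 0.018 over 8 relations) and rho = 0.85 (permutation p = 0.0019, adjusted p = 0.016), with r = 0.68 when the 2 livers farthest from the median of Foxo1 were left out. The mouse with most Foxo1, 536 at 91.6 CPM, also had most Pck1, at 4025 CPM. In the 7 KO livers r was 0.70 (permutation p = 0.082, adjusted p = 0.27) and rho 0.75 (permutation p = 0.066, adjusted p = 0.26), and r fell to 0.18 without the 2 farthest, so there the relation rested on those mice. With G6pc, Igfbp1 and Irs2, Foxo1 had r of -0.22, 0.15 and -0.16 in WT livers and none passed. In the 7 KO livers these r were -0.67, 0.09 and -0.25, and none passed. For G6pc there, the permutation p was 0.10 (adjusted p = 0.27) and rho was -0.68. Without the 2 farthest KO livers r was -0.71, -0.84 and -0.15. Whether these relations differ between targets or genotypes was not tested. In WT livers B3gat3, Ptbp1 and Rbm18 had r of 0.94, 0.93 and 0.93 with Pck1, above that of Foxo1. The labels name no batch.

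**Figure D4:**
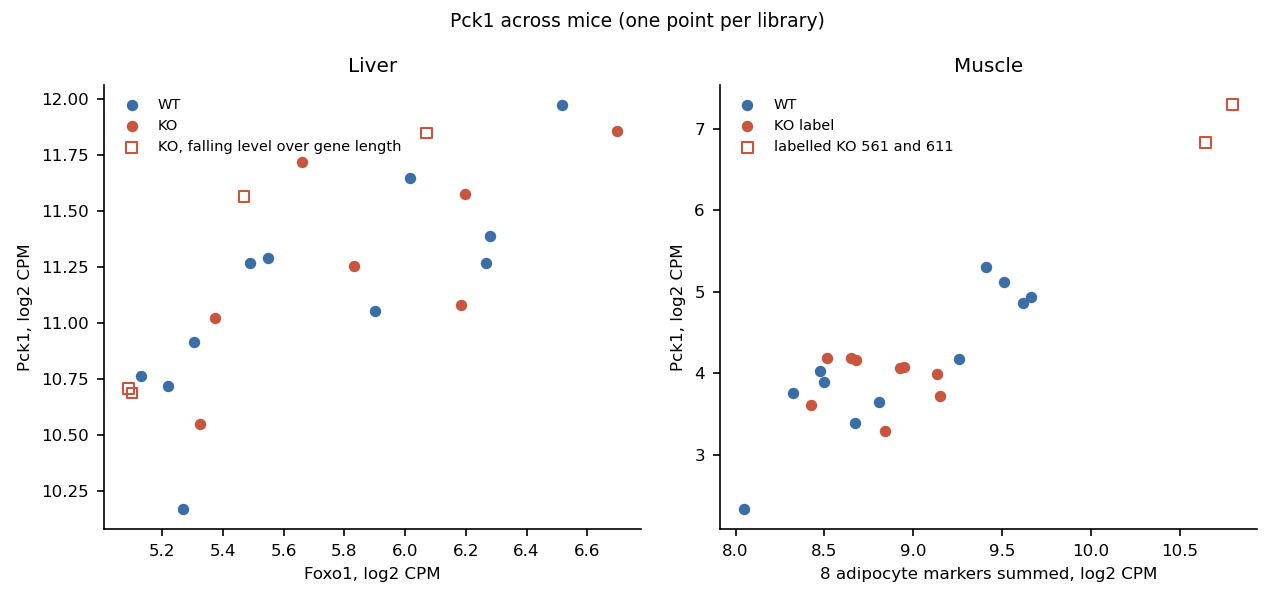
Pck1 against Foxo1 in liver (left) and against the summed level of 8 adipocyte markers in muscle (right), both as log2 CPM, 1 point per library; open squares are the 4 KO livers of negative length slope and the muscles labelled KO 561 and 611. In WT livers r is 0.80 and in WT muscles r is 0.88, and the open squares of muscle lie beyond all other points on both axes.

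Over the whole liver transcriptome, the genes most like each target across the 11 WT livers were looked up by Pearson's r of log2 CPM among 13005 genes, as a description. For G6pc these included Slc25a25, a mitochondrial ATP-Mg/phosphate carrier, at r = 0.97 and Pde9a, a cyclic GMP phosphodiesterase, at 0.94, and in the 7 KO livers r was 0.86 for both, with 97.0% and 97.2% of genes lower. For Igfbp1 they were Pnrc1 (0.94), Marveld3 (0.93) and Paqr9 (0.91), with r of 0.45, 0.02 and -0.22 in the 7 KO livers. For Irs2 they were Mcm7 (0.92), Zfp113 (0.92) and Zfp39 (0.91), with 0.53, 0.74 and 0.33. For Pck1 they were B3gat3 (0.94), Ptbp1 (0.93) and Rbm18 (0.93), with 0.51, 0.74 and 0.23. Of the genes named, Slc25a25 and Pde9a had the highest r in the 7 KO livers. By the share of genes with a lower r there, Zfp113 with Irs2 stood at 97.3% and Ptbp1 with Pck1 at 96.0%.

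In muscle 7 of the 10 transcripts passed the filter on low counts, and none differed between the mice labelled KO and WT, where 1 of 13266 genes (0.00754%) passed. None had an unadjusted p under 0.05, against 8.64% of genes. Along the insulin signalling chain the differences were near 0: the log2 difference was 0.01 (-0.08 to 0.09) for Insr, -0.01 (-0.27 to 0.26) for Irs1 and 0.00 (-0.10 to 0.10) for Akt2, with medians of 132 and 134, 45.2 and 45.6, and 235 and 230 CPM in the libraries labelled KO and WT. Irs2 had medians of 15.5 and 20.2 CPM and a difference of -0.31 (-0.73 to 0.11, adjusted p = 0.67). Pcx, which refills the citric acid cycle in muscle, was at 101 and 106 CPM and differed by -0.01 (-0.15 to 0.14).

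Pck1 had the largest difference of the 7 in muscle, 0.88 (-0.12 to 1.88, p = 0.083, adjusted p = 0.63), with 2 libraries far above the others. Mice 561 and 611, labelled KO, were at 157 and 114 CPM, while the other 9 labelled KO ran from 9.70 to 18.2 CPM and the WT muscles from 4.98 to 39.5 CPM. Without 561 and 611, left out after the values had been seen, the difference was -0.40 (-0.95 to 0.15, adjusted p = 0.60). Dropping the 2 highest values of the labelled KO lowers the difference by construction, so the change of sign is a description. Pck1 also serves glycerol production in fat cells, and 8 adipocyte markers, Adipoq and Plin1 among them, summed to 1778 CPM in 561 and 1599 CPM in 611, against 343 to 569 CPM in the other 9 and 265 to 809 CPM in WT muscles. All 8 markers were detected in both groups of muscles. The same 2 libraries were also the highest labelled KO for hepatocyte markers (57.6 and 35.2 CPM, against at most 13.8 in WT), macrophage markers (84.3 and 95.1, at most 68.6), endothelial markers (290.1 and 311, at most 266) and stellate or fibroblast markers (804 and 892, at most 724), and the lowest for muscle fibre markers (194792 and 171130, at least 194331). The part of each in the Pck1 values was not tested. Across the 11 WT muscles, in a comparison chosen after the values had been seen, Pck1 and the adipocyte sum had r = 0.88 (permutation p = 0.00041, adjusted p = 0.00082). Spearman's rho was 0.77 (permutation p = 0.0075, adjusted p = 0.015), and r was 0.86 without the 2 farthest muscles. The adjustment does not cover that choice. In the 9 labelled KO without 561 and 611, where Pck1 varied little, r was -0.10 (permutation p = 0.81) and rho -0.27 (permutation p = 0.50). In such bulk samples fewer cells of a type and less RNA per cell cannot be told apart.

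The genes most like Pck1 across WT muscles were Steap4 (r = 0.98), Eps8 (0.96) and Vim (0.95), with r of 0.88, 0.71 and 0.90 across the 11 muscles labelled KO, 561 and 611 included. Foxo1 was another muscle transcript with single high libraries. Mice 568, 570 and 583, labelled KO, were at 114, 109 and 68.4 CPM and WT mice 516 and 567 at 63.0 and 60.6, while the remaining 17 muscles ran from 23.98 to 40.1 CPM. The difference was 0.33 (-0.24 to 0.90, adjusted p = 0.76) over all libraries, with medians of 29.5 in the labelled KO and 33.5 in WT. The genes most like Foxo1 across WT muscles included Ush1c (r = 0.90) and Dcaf13 (0.88), and r was 0.06 and -0.02 across the labelled KO. Fbp1 had 157 reads, 5.09 CPM, in the muscle of mouse 602, labelled KO, and at most 0.464 CPM in every other muscle, and G6pc had 5 reads over all muscles labelled KO; the hepatocyte markers of that library summed to 9.93 CPM, within the 4.49 to 13.8 CPM of WT muscles.

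**Figure D5:**
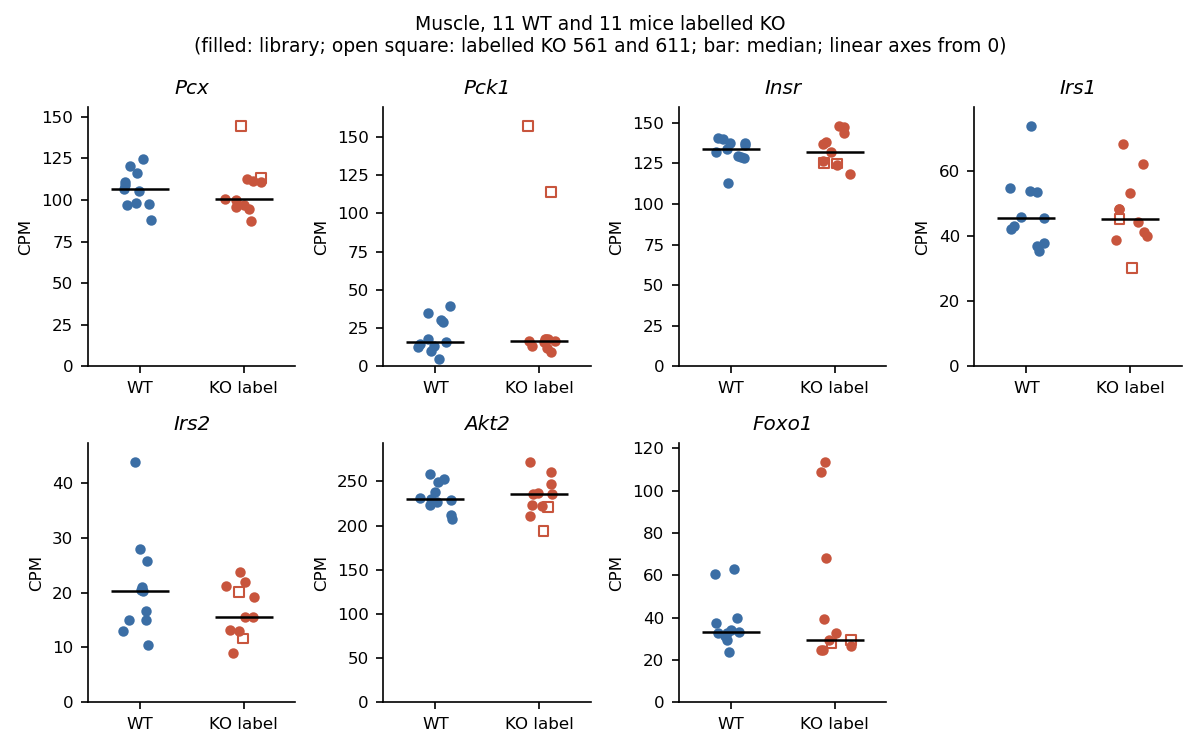
CPM of the 7 transcripts tested in muscle, in 11 WT libraries and 11 libraries labelled KO; linear axes start at 0, bars are medians, and open squares are mice 561 and 611. Pck1 is at 157 and 114 CPM in these libraries and below 40 in all others, and Foxo1 exceeds 60 CPM in 3 libraries labelled KO and 2 WT libraries.

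The pathway lists held no called gene in muscle: 0 of 29 in gluconeogenesis and its regulators, 31 in insulin signalling, 20 brakes, 9 of the binding family and 7 of the transcripts raised by insulin in liver. At an unadjusted p under 0.05, 1 was higher and 0 lower in the libraries labelled KO in the first list, 0 and 4 in the second, 1 and 3 in the third, 2 and 0 in the next and 0 and 0 in the last, beside 3.76% higher and 4.88% lower over all genes. By unadjusted p the leading genes were Pik3r2 (-0.20 ± 0.06, p = 0.0016), a regulatory subunit of phosphoinositide 3-kinase, Creb1 (0.13 ± 0.04, p = 0.0021), a cyclic AMP responsive factor, Igfbp3 (0.22 ± 0.08, p = 0.011) and Gys1 (-0.11 ± 0.04, p = 0.012), the muscle glycogen synthase, with adjusted p of 0.49 to 0.51. Socs3, a feedback inhibitor of cytokine and insulin signalling, was at -0.61 ± 0.26 (p = 0.028, adjusted p = 0.52), and at -0.30 without WT mouse 516.

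Liver and muscle values of the same WT mouse were then set side by side for the 7 transcripts measured in both. None was related after adjustment over 7 relations. Pck1 came closest, with r = -0.71 (permutation p = 0.015, adjusted p = 0.10) and rho = -0.70 (permutation p = 0.019, adjusted p = 0.13), and r = -0.36 without the 2 mice farthest from the median, so the value rested on those 2 mice. Insr had r = 0.20, Irs2 0.01, Foxo1 -0.13 and Akt2 0.43. The difference between the KO effects in liver and muscle was tested in an edgeR model of all 44 libraries and passed for none of these 7 transcripts, the largest being -0.72 (-1.80 to 0.36, adjusted p = 0.46) for Pck1, where 1 of 14739 genes (0.00678%) passed and 16.2% had an unadjusted p under 0.05. None of the 7 had an unadjusted p under 0.05. With the mouse as a replicate block the Pck1 difference was -0.07 (-1.21 to 1.083). For Fbp1, G6pc and Igfbp1 muscle was at or near 0 and no difference is given.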

How the data were processed

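RNA of both tissues was measured in 11 mice of each genotype, grouped by the labels, whose animal number pairs the liver and the muscle of a mouse. The authors deposited raw read counts per gene and, in a second table, RPKM values; RNA integrity, a stranded poly(A) kit and single-end reads are given in their methods, and the aligner, counter, genome build and annotation are not given in the sources used here. Genes were tested on the deposited counts with edgeR 4.0.16 (quasi-likelihood, TMM, filterByExpr, Benjamini-Hochberg threshold 0.05) in R 4.3.3. Within a tissue, a p measures the spread between mice. The main tests between tissues treated the liver and the muscle of a mouse as independent. There the mouse as a replicate block was an alternative. Alternatives used DESeq2, limma-voom, other filters, RPKM, gene length removed by loess and libraries left out. Fits added after the data had been seen left out muscles 561 and 611, or in muscle the mice of negative liver slope. The fit with both length removed and the 4 KO livers left out was also added then. Permutation tests were two-sided and drew 100000 resamples. On simulated liver counts, 90% of 200 genes changed by 1 log2 unit were recovered among 12927. Named genes were the 10 transcripts and, from each pathway list, at most 4 called genes by size of change, or where none passed at most 2 by unadjusted p; paralogs were named by level, and likeness by the 3 highest r, of which some items are not reported here. The transcripts and lists were chosen with earlier results of these data known. No library pair was identical.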

Additional observations from a re-analysis of the deposited data

Results flagged for a closer look

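Slc16a13, the deleted gene, was the only result for which the test of a difference between tissues passed. The log2 difference between KO and WT mice in liver, minus that in muscle, was -6.08 by edgeR's interaction test (SE 0.38, adjusted p = 5.9e-16), with -5.45 in liver and 0.64 in the muscle libraries as labelled. The muscle value rests on 4 to 40 reads per library.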

How the results depend on the processing

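No alternative called any of the 10 transcripts between KO and WT livers or between muscles labelled KO and WT, and the 7 detected in both tissues were called between the WT tissues in the alternatives run. Of 1556 alternative values, 1452 kept their direction and side of the threshold or their size, 90 changed sign without passing and 14 moved. In liver, counts of called genes were 7 with DESeq2 and 1 with at least 10 counts in every library, a filter that also removed Irs2; in muscle 2 with DESeq2 and 0 with limma-voom, no filter, at least 10 counts, either RPKM pseudocount, without the mice of negative liver slope and without 561 and 611. In the test of liver against muscle the counts were 42 with DESeq2, 3 with library size alone and 0 with at least 10 counts, and DESeq2 called 1 of the 10, Fbp1, whose muscle reads were near 0. Library size alone moved the median of all genes there to -0.11. With the mouse as a replicate block, 1 gene passed there and 12674 between the WT tissues, and the pairing changed no call of the 10.

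Log2 differences that changed sign in liver were Pcx 0.065, Fbp1 -0.053 and Insr 0.062 with gene length removed; Fbp1 -0.085, Insr 0.095, Irs1 0.11, Akt2 0.025 and Mpc2 -0.029 without the 4 KO livers, and Fbp1 -0.065, Insr 0.075, Irs1 0.085, Akt2 0.033 and Mpc2 -0.0032 with both; Fbp1 -0.026 and Foxo1 -0.039 with library size alone; and Foxo1 -0.055 and -0.049, Mdh1 -0.01003 and -0.01002, and Igfbp4 -0.0347 and -0.0346 on RPKM with 0.1 and 1 added. In muscle they were Pcx 0.018, Irs1 0.0063 and Akt2 0.016 with library size alone, Pcx 0.0048 and 0.0050, Irs1 0.0079 and 0.0066, Akt2 0.0087 and 0.0086 and Srebf1 0.036 and 0.035 on RPKM, Akt2 0.0019 with at least 10 counts, Insr -0.042 with gene length removed, Pcx 0.00060 and Akt2 0.0062 without the mice of negative liver slope, and Pck1 -0.40, Irs1 0.062 and Akt2 0.038 without 561 and 611. Between tissues, without the mice of negative liver slope, Insr was at 0.064, Irs1 0.14, Irs2 0.31 and Akt2 0.017. The Pck1 to Pck2 ratio in liver was 0.049 higher in KO without the 4 livers. With all 11 KO livers r was 0.21 for Pck1 with Irs2, 0.49 for G6pc with Irs2 and 0.50 for Igfbp1 with Irs2, and between liver and muscle on RPKM r was -0.073 for Irs2 and -0.11 for Akt2. Leaving out each library in turn gave -0.035 to 0.018 for Akt2 and -0.11 to 0.12 for Foxo1 in liver, and -0.025 to 0.026 for Akt2, -0.015 to 0.019 for Insr, -0.073 to 0.073 for Irs1 and -0.056 to 0.019 for Pcx in muscle. Single libraries also moved liver G6pc (-0.42 to -0.11, the latter without WT 624), Igfbp1 (-0.51 to -0.083, without WT 623, and -0.17 without WT 624), Irs2 (-0.64 to -0.26, without WT 623), Insr (-0.22 to -0.081, without KO 532, and -0.11 without KO 602), Irs1 (-0.49 to -0.21, without KO 532), Pck1 (0.054 without WT 516 to 0.24 without WT 536), Pcx (-0.11 to -0.051, without KO 532) Fbp1 (0.010 without KO 532 to 0.073 without WT 528) and Trib1 (-0.32 to -0.16, the latter without WT 624), and muscle Pck1 (0.33 to 1.02, the former without 561, and 0.53 without 611), Foxo1 (0.11 to 0.42, the former without 568, and 0.13 without 570) and Irs2 (-0.38 to -0.15, the latter without WT 536), none past the threshold. Apart from what each alternative leaves out or rescales, the cause was not tested.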
